A study of Homo sapiens with 6 samples.

Results

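CTNND1, ENAH, NUMB, EXOC1, EXOC7, SLK, TJP1, MAP3K7 and CTTN are 9 genes whose transcripts are spliced differently in epithelial and mesenchymal cells. Their events were taken from 5 tables of alternative splicing by gene symbol, with a mean of at least 10 junction reads over 6 libraries. This gave 101 events of 66396 tested events in all, and each of the 9 genes had at least 4. The study asked how the RNA-binding protein SAM68, the product of KHDRBS1, alters splicing in lung adenocarcinoma. The cells were NCI-H1975, an established human lung adenocarcinoma line. The control group received empty pcDNA3.1 and the SAM68 group received pcDNA3.1-SAM68, each at 2 ug per well with lipofectamine 2000. RNA was taken after 48 h from 3 libraries per group. Both groups therefore share the transfection and the vector, and SAM68 came from the plasmid in addition to the cells' own gene.

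Epithelial cells sit in sheets held by adherens and tight junctions, and in epithelial-mesenchymal transition they loosen these contacts and become motile. Beside transcription, the transition involves a programme of exon choices in genes of the actin cytoskeleton, cell junctions, cell polarity and vesicle traffic. ESRP1 and ESRP2 are the best known regulators of the epithelial pattern, while RBFOX2 and QKI are linked to the mesenchymal pattern, and PTBP1 acts on many of the same exons. SAM68 is an RNA-binding protein of the STAR family, which also holds QKI, and it binds short AU-rich motifs. The comparison of SAM68 with control libraries addresses whether exons of this programme were included differently after SAM68 overexpression.

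The tables give, for each event, the reads that cross the splice junctions of an inclusion form and of a skipping form in every library. Inclusion is given as percent spliced in (PSI), the share of the inclusion form after both counts are divided by their effective lengths. The skipped exon table held 18114969, 19645856 and 18627563 junction reads for control and 19737729, 16951876 and 17007769 for SAM68. Events of the 9 genes held 22858, 24943 and 23002 reads in control and 22885, 19469 and 21491 in SAM68. The depths of the groups overlap on both counts. The tables print each group as a list of 3 values with no replicate numbers, so libraries are named here by their position in the list. Which list is the control was read from the study's own plot, and the reads of KHDRBS1 check it. KHDRBS1 had 311, 328 and 316 junction reads per 1000000 (rpm) in control and 1230, 1260 and 1276 rpm in SAM68, plasmid transcripts included. Every SAM68 library was far above every control library, with a log2 fold change of 1.98 (limma, adjusted p 1.16e-21).

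Of the 101 events, 82 were skipped exons, 10 mutually exclusive exons, 4 alternative 3' splice sites, 4 alternative 5' splice sites and 1 a retained intron. The skipped exon events covered 61 distinct exons, since an exon can be listed between different neighbours. Mean PSI was over 95% for 35 of these exons, under 5% for 8 and between the limits for 18. Most of the exons were therefore included nearly always in these cells, and the alternative ones were the minority that could show a shift in either direction. Those described singly are the exons between the limits with a mean of at least 50 reads (at most 4 per gene). They also include the exons known from epithelial-mesenchymal transition and the 5 events with the largest PSI difference at a mean of at least 50 reads. Known exons were matched by a length in whole codons. Every gene but CTNND1 had a match, and NUMB and EXOC7 had more than 1. The early exons of CTNND1, also switched in the transition, were taken up under the limits on PSI and reads instead.

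Sequences of 10 exons of this programme are shown because their inclusion is the quantity measured here, and because all are wholly coding and multiples of 3 bases in length. Each keeps the reading frame whether it is included or skipped, so that inclusion adds a short stretch to the protein. They were read from hg38 on the transcribed strand, with the exon in capitals and 30 intron bases on each side in lower case. The ENAH 63-nt exon lies at chr1:225504991-225505053 on the minus strand. The CTTN 111-nt exon lies at chr11:70421470-70421580 on the plus strand. The TJP1 240-nt exon lies at chr15:29719777-29720016 on the minus strand. The NUMB 144-nt exon lies at chr14:73279281-73279424 on the minus strand. The NUMB 33-nt exon lies at chr14:73316390-73316422 on the minus strand. The EXOC1 45-nt exon lies at chr4:55888888-55888932 on the plus strand. The EXOC7 93-nt exon lies at chr17:76091143-76091235 on the minus strand. The EXOC7 69-nt exon lies at chr17:76090329-76090397 on the minus strand. The SLK 93-nt exon lies at chr10:104010816-104010908 on the plus strand. The MAP3K7 81-nt exon lies at chr6:90544552-90544632 on the minus strand.
ENAH 63-nt exon: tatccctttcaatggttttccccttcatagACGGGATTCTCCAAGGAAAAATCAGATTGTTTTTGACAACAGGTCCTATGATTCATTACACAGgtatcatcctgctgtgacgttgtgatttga
CTTN 111-nt exon: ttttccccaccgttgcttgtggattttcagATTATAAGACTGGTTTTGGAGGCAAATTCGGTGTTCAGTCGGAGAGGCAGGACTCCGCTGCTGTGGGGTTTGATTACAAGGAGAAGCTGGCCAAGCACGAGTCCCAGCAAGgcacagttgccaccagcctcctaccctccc
TJP1 240-nt exon: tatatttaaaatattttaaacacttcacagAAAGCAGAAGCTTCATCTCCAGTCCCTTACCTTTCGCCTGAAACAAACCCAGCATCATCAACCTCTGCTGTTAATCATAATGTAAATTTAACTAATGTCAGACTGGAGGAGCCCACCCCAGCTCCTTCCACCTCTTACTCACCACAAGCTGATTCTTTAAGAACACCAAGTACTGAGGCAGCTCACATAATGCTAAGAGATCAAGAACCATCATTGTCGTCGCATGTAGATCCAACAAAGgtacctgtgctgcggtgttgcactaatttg
NUMB 144-nt exon: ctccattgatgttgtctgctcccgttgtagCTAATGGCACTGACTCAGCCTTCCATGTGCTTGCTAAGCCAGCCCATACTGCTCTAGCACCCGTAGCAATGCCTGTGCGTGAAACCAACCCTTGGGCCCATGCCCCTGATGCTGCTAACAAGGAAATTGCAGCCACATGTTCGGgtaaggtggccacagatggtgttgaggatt
NUMB 33-nt exon: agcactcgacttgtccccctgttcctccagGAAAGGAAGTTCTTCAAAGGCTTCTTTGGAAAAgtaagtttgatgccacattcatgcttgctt
EXOC1 45-nt exon: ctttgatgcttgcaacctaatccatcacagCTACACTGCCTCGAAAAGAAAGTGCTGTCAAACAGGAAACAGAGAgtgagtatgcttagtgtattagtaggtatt
EXOC7 93-nt exon: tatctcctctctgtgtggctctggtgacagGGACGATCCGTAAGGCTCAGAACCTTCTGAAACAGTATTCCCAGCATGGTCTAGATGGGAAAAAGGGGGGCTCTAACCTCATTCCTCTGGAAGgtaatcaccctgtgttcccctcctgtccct
EXOC7 69-nt exon: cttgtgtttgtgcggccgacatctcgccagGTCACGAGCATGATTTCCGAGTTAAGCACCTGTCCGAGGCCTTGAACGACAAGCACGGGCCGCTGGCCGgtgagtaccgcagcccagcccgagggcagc
SLK 93-nt exon: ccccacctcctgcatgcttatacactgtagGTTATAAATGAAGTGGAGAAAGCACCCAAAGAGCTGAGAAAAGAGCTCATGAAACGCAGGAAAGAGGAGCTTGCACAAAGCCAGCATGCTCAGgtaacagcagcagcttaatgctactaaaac
MAP3K7 81-nt exon: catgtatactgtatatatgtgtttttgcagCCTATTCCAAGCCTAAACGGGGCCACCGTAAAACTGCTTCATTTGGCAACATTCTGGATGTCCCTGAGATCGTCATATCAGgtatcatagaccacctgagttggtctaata

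Each event was fitted with a quasi-binomial model of its inclusion and skipping counts, and p-values were adjusted over all events of its type. To be called, an event needed an adjusted p under 0.05 and a PSI difference of at least 10 points. Of the 101 events of the 9 genes 0 were called, beside 62 of 66396 events in all (0.0934%). The smallest adjusted p among the 101 was 0.289. A limma fit of the logit of PSI and a fit with each event's own dispersion also called 0 of the 101, beside 3 and 2 of all events. At an unadjusted p under 0.05 the quasi-binomial model gave 6 of the 101 events (5.94%), beside 5.95% of all events, and limma and the own-dispersion fit gave 5 (4.95%) and 2 (1.98%), beside 4.59 and 1.67% of all events. PSI did not overlap between the groups in 6 of the 101 events, beside 6.10% of all events. On both counts the share among the 9 genes was near that of all events. Of the 101 events, 48 had a higher and 53 a lower mean PSI in SAM68.

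The absolute PSI difference had a median of 0.800 points over the 101 events and 1.24 points over all events. Median depth was 174 reads per library for the 101 events and 111 reads for all. A difference of at most 5 points was found in 91 of the 101 events (90.1%) and in 82.1% of all events. Differences of at least 10 points were found in 2 of the 101 (1.98%), beside 7.16% of all events. They are a row of the CTNND1 72-nt exon and a row of the NUMB 33-nt exon with few reads, both described below. For events with a mean PSI from 5% to 95% and at least 50 reads, the median was 2.13 points over 29 events of the 9 genes and 2.98 points over 12334 events in all. The 95% interval of the difference lay within 10 points on either side of 0 in 80 of the 101 events (79.2%), beside 67.5% of all events. Among the 29 alternative and well-read events, the interval was that narrow in 12 (41.4%), beside 40.5% of all such events, so that for the rest a difference of 10 points was not outside the interval at this depth.

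**Figure D1:**
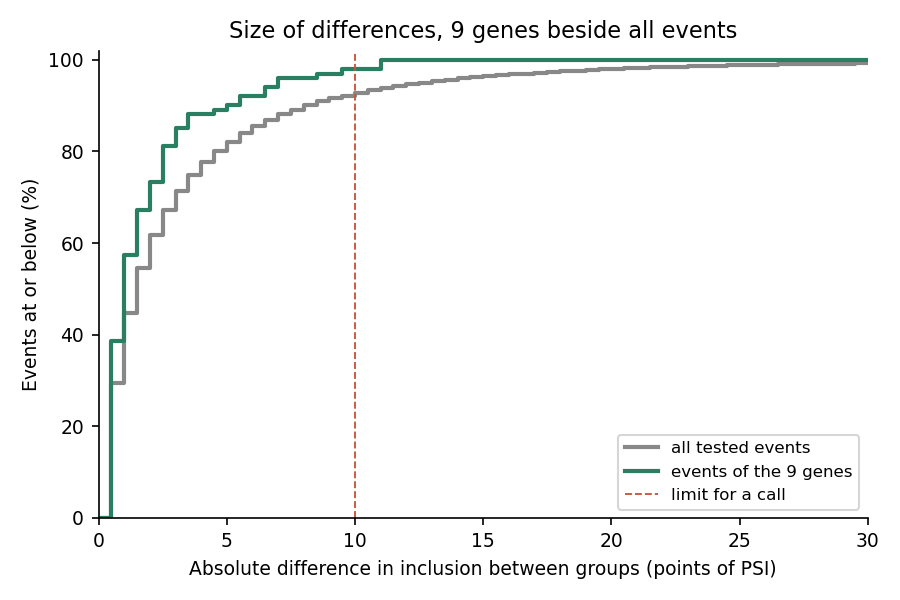
Share of events (%) at or below each absolute PSI difference between groups (points), for the 101 events of the 9 genes and for all 66396 tested events, with the limit of 10 points for a call dashed. The curve of the 9 genes reaches 90.1% at 5 points, where that of all events is at 82.1%.

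ENAH and CTTN act on the actin cytoskeleton. ENAH (Mena) promotes the growth of actin filaments at the leading edge, and its 63-nt exon, known as exon 11a, is included in epithelial cells and skipped in invasive mesenchymal ones. Its PSI was 4.20, 3.01 and 3.20% in control and 0, 0 and 0.731% in SAM68. The exon was mostly skipped in every library, and all 3 SAM68 libraries lay below all 3 control libraries. These values rest on 7, 5 and 4 inclusion reads in control and 0, 0 and 1 in SAM68, beside 82 to 112 skipping reads. The SAM68 libraries without inclusion reads allow a PSI of up to 1.78 and 2.39%, the limit of 3 reads. Mean PSI was 3.47% ± 0.641 in control and 0.244% ± 0.422 in SAM68 (SD, n = 3 each), a difference of -3.23 points with a 95% interval of -5.93 to -0.596. The event did not pass the correction (adjusted p 0.677), and the exact two-sided permutation p was 0.1, the smallest that 3 against 3 libraries can give.

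The other alternative exons of ENAH lie earlier in the gene and share their 3' end. The 111-nt exon, exon 6 of the canonical transcript, had a PSI of 94.0, 91.5 and 95.04% in control and 93.8, 96.6 and 90.3% in SAM68. The SAM68 values reach both higher and lower than the control values. The row of a longer 795-nt form spanned 79.2 to 87.0% in control and 75.0 to 91.0% in SAM68. It shares its skipping junction and its last junction with the 111-nt exon, so it does not measure use of the longer form, whose own 3' splice site was used at most at 3.64%. Neither row differed beyond the spread of its libraries, with differences of 0.0573 and 0.00536 points.

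CTTN encodes cortactin, which binds actin filaments through a row of repeats and stabilises branched networks. Its 111-nt exon 11 encodes 1 of these repeats. PSI was 75.9, 81.5 and 80.4% in control and 79.4, 80.4 and 77.5% in SAM68, from 514 to 640 reads per library. The values of the groups lie among each other. The difference was -0.182 points with a 95% interval of -5.29 to 4.87, so the interval is well within 10 points.

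A further event of CTTN pairs exons 10 and 11 as if they excluded each other, with the share of the form with exon 10 as its PSI. Exon 10 by itself had a mean PSI of 99.8% and exon 11 of 79.2%, so most transcripts hold both, and the value compares junction reads of both exons more than a choice between them. It was 65.5, 64.2 and 65.8% in control and 58.0, 57.7 and 61.3% in SAM68. All SAM68 libraries lay below all control libraries. The difference was -6.20 points (95% interval -11.3 to -1.13, adjusted p 0.408), and it did not pass the correction. The exact permutation p was again 0.1.

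CTNND1 and TJP1 belong to cell junctions. CTNND1 encodes p120-catenin, which holds cadherins at the membrane. Its early exons are included more in mesenchymal cells, where a protein that begins at the first start codon is made, and skipped more in epithelial cells, where shorter forms begin at a later one. The 289-nt exon 3 holds the start codon of 14 annotated coding transcripts. Its PSI against skipping from the first exon to exon 4 was 70.9, 64.9 and 52.5% in control and 70.6, 50.3 and 61.1% in SAM68. Both groups spanned about the same range. The difference was -2.13 points with a wide 95% interval of -12.4 to 8.59. Exon 2 was mostly included, and the reads that join it to exon 3 are not part of this row. Reads from the first exon straight to exon 3 numbered 8, 17 and 4 in control and 14, 5 and 10 in SAM68. The inclusion count thus rests mostly on the junction of exon 3 with exon 4, and this PSI understates the use of exon 3. A 182-nt form of the same exon with a later 3' splice site had the same skipping reads and nearly the same difference, -2.16 points. Its row shares the last junction with the 289-nt exon, and where both 3' splice sites were compared directly the 289-nt form had a mean of 85.9% in control and 87.3% in SAM68.

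The untranslated 119-nt exon 2 of CTNND1 had a PSI of 92.3, 88.5 and 96.8% in control and 91.3, 95.2 and 92.0% in SAM68, a difference of 0.298 points. The groups overlap throughout. The 72-nt exon 4 is listed between different neighbours. Counted against skipping from exon 3, it was at 90.0, 94.0 and 87.7% in control and at 91.1, 92.6 and 100% in SAM68, and the groups overlap. Counted against skipping from the first exon, it was at 71.7, 67.0 and 87.3% in control and at 84.7, 94.8 and 79.4% in SAM68. Here 1 control library lay above 2 of the SAM68 libraries. This difference of 10.97 points was the largest among the events described singly (95% interval 1.90 to 21.5). It was not called (adjusted p 0.699, exact permutation p 0.3), and it ranged from 6.73 to 16.9 points when 1 library was left out. Summed over the rows of the exon it was 6.97 points. The interval comes from the quasi-binomial model, and the unadjusted p was 0.216 by limma and 0.191 with the event's own dispersion.

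TJP1 encodes ZO-1, a scaffold that ties tight junctions to actin. Its 240-nt exon 20 encodes the alpha domain, and the form with the exon is the one found at most epithelial tight junctions. PSI was 19.3, 15.5 and 21.9% in control and 12.6, 19.3 and 19.3% in SAM68. The form without the exon was therefore the main one in every library, and the groups overlap. The difference was -1.86 points (95% interval -9.23 to 4.52, adjusted p 0.709).

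**Figure D2:**
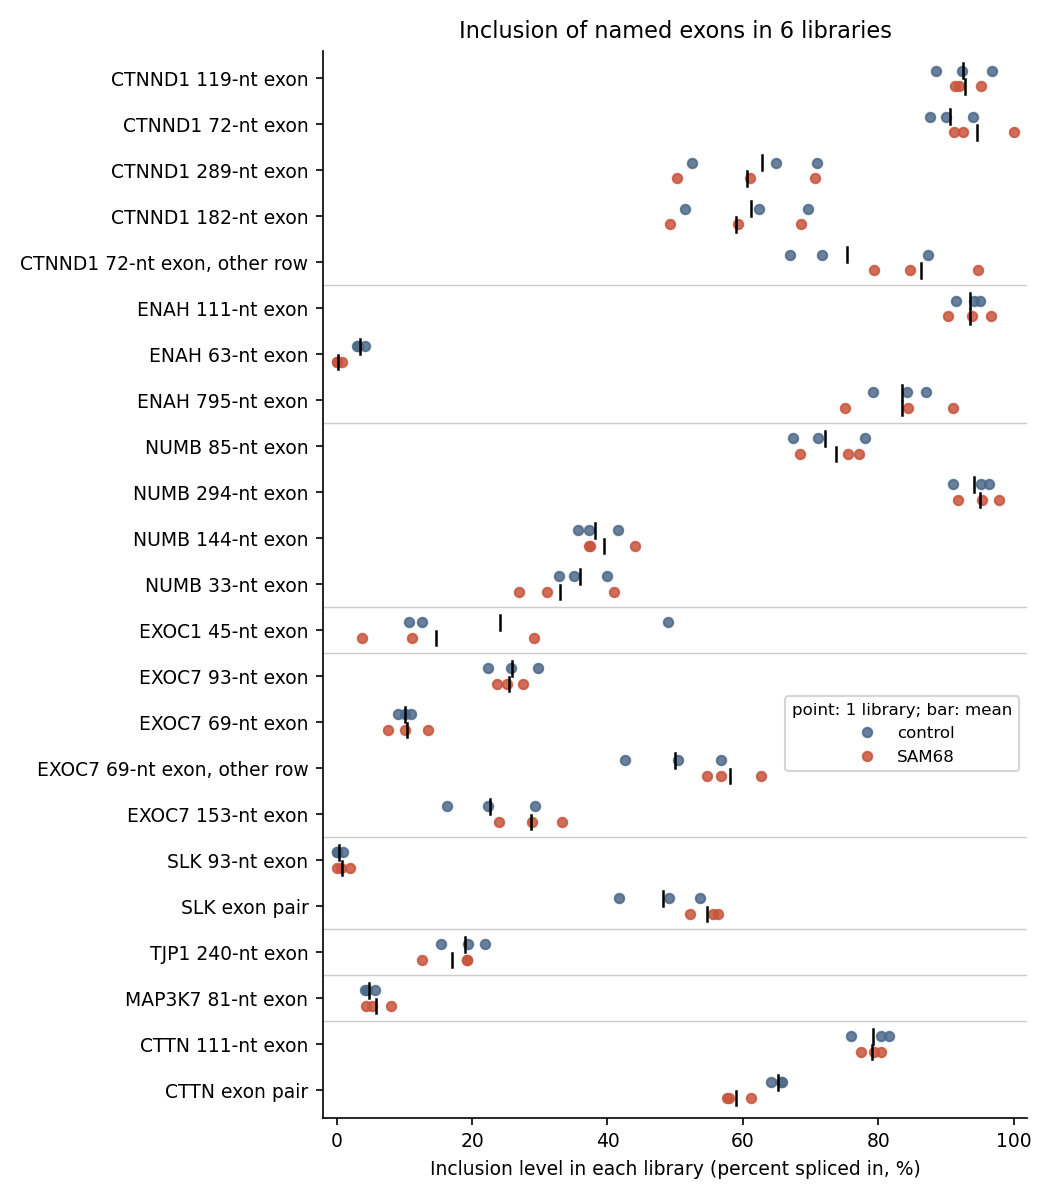
PSI (%) of the 23 events described singly, with each point 1 library, control above SAM68 for each event, bars at the group means, and "other row" for an exon counted between other neighbours. Control and SAM68 points are apart for the ENAH 63-nt exon and the CTTN exon pair and overlap for the other 21.

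NUMB is an adaptor protein that is shared out unequally in some cell divisions and restrains Notch signalling. Its 144-nt exon 12 lengthens the proline-rich region and its 33-nt exon 6 lengthens the phosphotyrosine-binding domain. PSI of the 144-nt exon was 35.7, 41.6 and 37.3% in control and 37.2, 37.4 and 44.1% in SAM68, from 249 to 378 reads. Both forms were common in every library, and the highest value was from SAM68 and the lowest from control. The difference was 1.36 points with a 95% interval of -5.55 to 7.35 (adjusted p 0.894). For the 33-nt exon, PSI was 32.8, 35.1 and 39.9% in control and 41.0, 31.1 and 26.9% in SAM68. Both the highest and the lowest value came from SAM68 libraries. The difference was -2.98 points with an interval of -10.1 to 4.93.

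The other NUMB exons described singly were mostly included. An 85-nt exon in the untranslated 5' part, exon 3, had a PSI of 71.0, 67.4 and 78.0% in control and 77.1, 68.4 and 75.5% in SAM68. The groups overlap, with a difference of 1.55 points (95% interval -4.01 to 8.06). The 294-nt exon 10 spanned 91.0 to 96.3% in control and 91.7 to 97.9% in SAM68.

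EXOC1 and EXOC7 are subunits of the exocyst, the complex that tethers secretory vesicles to the plasma membrane. EXOC7 (Exo70) also promotes branched actin in its mesenchymal form, and ESRP1 is known to regulate the choice of its isoforms. The 93-nt exon 7 of EXOC7 had a PSI of 22.4, 25.8 and 29.7% in control and 25.2, 27.5 and 23.7% in SAM68. All SAM68 values lie inside the control range. The difference was -0.458 points with a 95% interval of -7.13 to 6.44. The 69-nt exon, which follows in the gene and was counted against the same skipping junction, had a PSI of 9.08, 10.1 and 11.05% in control and 7.63, 13.5 and 10.1% in SAM68. These groups overlap too, with a difference of 0.353 points (95% interval -5.02 to 5.27). The row had 21, 23 and 21 inclusion reads in control and 19, 25 and 19 in SAM68. Reads that join the 69-nt exon past a skipped 93-nt exon numbered only 2, 0 and 3 in control and 0, 0 and 1 in SAM68. Nearly all the others lie on its last junction, shared with transcripts that hold the 93-nt exon. The row therefore hardly measures the 69-nt exon without the 93-nt exon.

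A separate row counts the 69-nt exon among EXOC7 transcripts that hold the 93-nt exon. Its PSI there was 56.8, 50.4 and 42.6% in control and 54.6, 56.8 and 62.7% in SAM68. The row of a 153-nt form with an earlier 3' splice site was at 29.2, 22.3 and 16.4% in control and at 24.1, 28.9 and 33.3% in SAM68. That splice site itself had 0, 0 and 0 reads in control and 0, 1 and 0 in SAM68, beside 27 to 39 for the site of the 69-nt exon. The row therefore rests on the last junction, shared with the 69-nt exon, and does not measure use of the longer form. In both rows the mean was higher in SAM68 while single libraries of the groups overlap. The differences were 8.08 points (95% interval -5.07 to 22.0) and 6.12 points (-6.30 to 19.6). With control list position 3 left out they were 4.41 and 2.98 points, and summed over the rows of the exon the first was 2.298 points. The rows share their skipping reads as well, so they are not separate measurements.

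The 45-nt exon 11 of EXOC1 was read least of the exons described singly, with 20 to 36 reads per library. Its PSI was 10.8, 12.6 and 49.0% in control and 29.1, 11.1 and 3.78% in SAM68. The highest value came from the control library in list position 3 and the lowest from a SAM68 library, with the others between. The difference was -9.44 points with a 95% interval of -22.9 to 9.31 (adjusted p 0.699, exact permutation p 0.6). With control list position 3 left out it was 3.00 points, so its direction rests on that library.

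SLK and MAP3K7 are kinases. SLK acts on the cytoskeleton and on focal adhesion turnover. Its 93-nt exon 13 had 0, 2 and 0 inclusion reads in control and 3, 0 and 1 in SAM68, beside 76 to 139 skipping reads. PSI was 0, 0.893 and 0% in control and 1.94, 0 and 0.619% in SAM68, so the exon was almost wholly skipped in every library. Libraries without inclusion reads allow a PSI of up to 1.25 to 2.26%. The difference was 0.554 points with an interval of -0.882 to 2.07, and 0.0119 points with SAM68 list position 1 left out. The exon could hardly be skipped more.

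An event of SLK that pairs exons 8 and 9 as mutually exclusive was also among the largest differences. Both exons were included at over 99% by themselves (99.7 and 99.4%), so its value is again no choice between exons. It was 49.1, 53.7 and 41.7% in control and 55.6, 52.2 and 56.3% in SAM68. A single SAM68 library lay below the highest control library. The difference was 6.53 points (95% interval -2.98 to 15.5, adjusted p 0.824), and it ranged from 3.30 to 9.29 points with 1 library left out.

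MAP3K7 encodes TAK1, a kinase that carries signals from TGF-beta and inflammatory receptors. Its 81-nt exon 12 had a PSI of 4.23, 4.51 and 5.63% in control and 5.19, 8.004 and 4.39% in SAM68, from 210 to 282 reads. The exon was skipped in most transcripts, and the SAM68 library in list position 2 had the highest value while the groups overlap. The difference was 1.07 points with a narrow 95% interval of -1.91 to 3.75 (adjusted p 0.722).

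**Figure D3:**
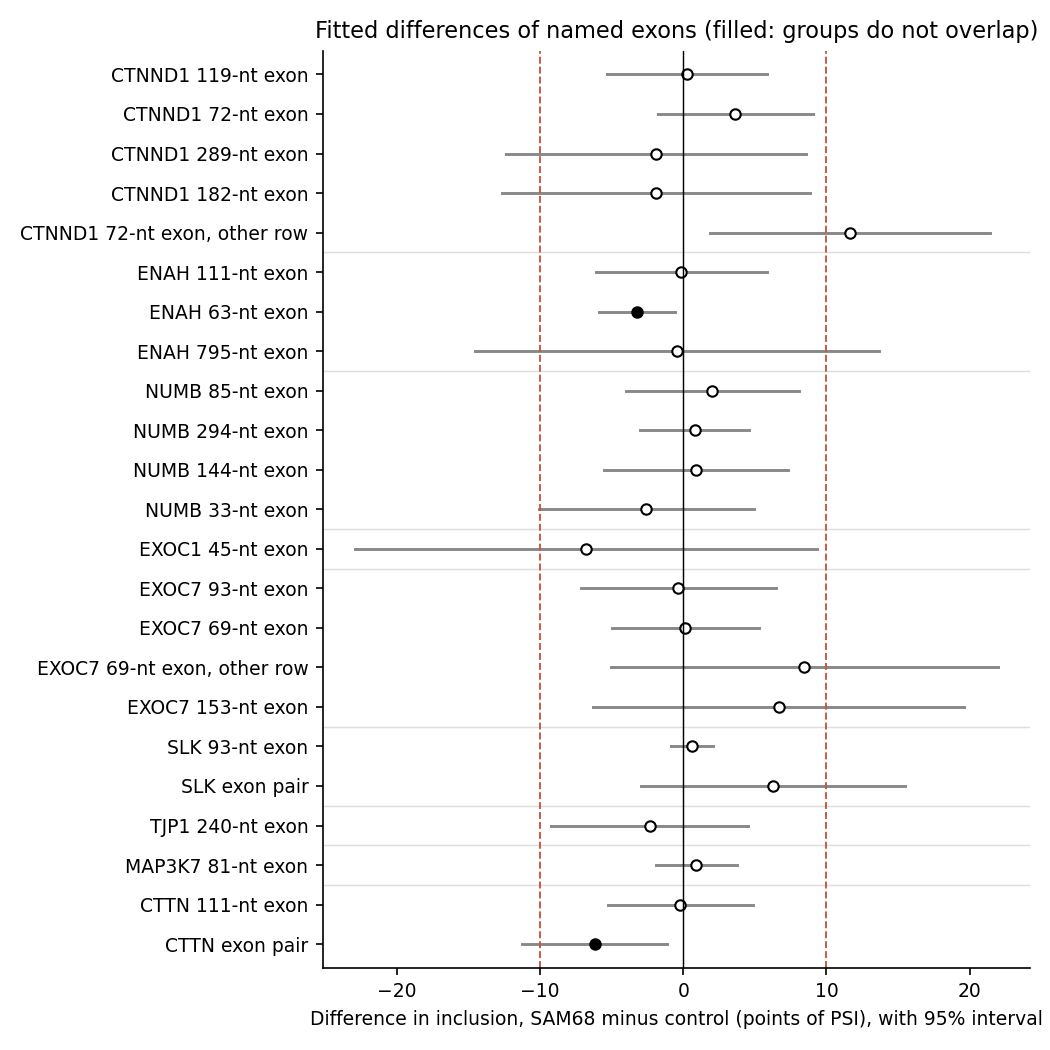
PSI difference (points, SAM68 minus control) fitted for the 23 events described singly, with 95% intervals and dashed lines at 10 points on either side of 0. Intervals of the quasi-binomial model leave out 0 for the CTNND1 72-nt exon counted from the first exon (1.90 to 21.5). They also do so for the ENAH 63-nt exon (-5.93 to -0.596) and the CTTN exon pair (-11.3 to -1.13).

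A further 8 events are named after their values were seen, because they had an unadjusted p under 0.05, groups that do not overlap or a difference of at least 10 points. The 223-nt exon of EXOC7 had the smallest adjusted p of the 101 events, 0.289. Its PSI was 96.2, 100 and 97.4% in control and 100% in every SAM68 library, a difference of 2.14 points. The groups meet at 100%. The difference was 1.31 points (adjusted p 0.784) with control list position 1 left out, 3.21 points with control list position 2 left out, and 1.09 points without effective lengths. The 478-nt exon of TJP1 was at 100% in every control library and at 95.7, 100 and 96.2% in SAM68, a difference of -2.68 points (adjusted p 0.457). The 139-nt exon of MAP3K7 was at 99.6, 100 and 100% in control and at 100, 100 and 95.9% in SAM68. All 3 are exons of nearly every transcript, with few skipping reads in a part of the libraries. A row of the NUMB 33-nt exon with a mean of 15.3 reads was at 100% in every control library and at 100, 100 and 68.2% in SAM68. Its difference of -10.6 points (95% interval -22.1 to 7.53, adjusted p 0.699) rests on 3 skipping reads in SAM68 list position 3, and was 0 with that library left out.

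Of the events without overlap, the longer 3' splice site form of the ENAH 111-nt exon was used at 3.25, 3.26 and 3.64% in control and 0, 2.42 and 2.48% in SAM68. The untranslated 85-nt and 132-nt exons of NUMB, each counted against skipping from the first exon, were at 95.8, 96.0 and 98.6% and at 97.3, 97.4 and 98.9% in control. Both were at 100% in every SAM68 library. The differences of these 3 events were -1.75, 3.20 and 2.14 points. That of ENAH was -0.936 points with SAM68 list position 1 left out and -3.36 points without effective lengths. The NUMB rows share a skipping junction with 3, 3 and 1 reads in control and 0 in SAM68, so they are not separate measurements. Summed over the rows of each exon they were 1.98 and 0.496 points. A pair of exons 4 and 5 of MAP3K7 listed as mutually exclusive was at 38.7, 38.8 and 37.9% in control and 42.3, 46.1 and 43.2% in SAM68, although both exons by themselves were included at over 99%. Its difference was 5.44 points (adjusted p 0.829). With the ENAH 63-nt exon and the CTTN pair these are the 6 events without overlap, the NUMB rows among them counted singly, and all of them missed the correction.

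Other genes with exons switched in epithelial-mesenchymal transition gave 292 tested events in 24 genes, from a list of 25. Of these events 0 were called by the quasi-binomial model, by limma or by the own-dispersion fit. The counts at an unadjusted p under 0.05 were 21, 18 and 5, or 7.19, 6.16 and 1.71%, beside 5.95, 4.59 and 1.67% of all events. The median absolute difference was 1.42 points, beside 1.24 points over all events. Groups did not overlap in 19 events (6.51%), beside 6.10% of all events. The smallest adjusted p, 0.0637, was that of a 21-nt exon of KIF21A, a kinesin, named after its values were seen. Its PSI was 0, 4.45 and 0% in control and 20.1, 13.9 and 5.39% in SAM68. Every SAM68 library was above every control library, though the SAM68 libraries differ widely. The difference was 11.6 points (95% interval 5.42 to 18.1). Its adjusted p went under the limit when p was adjusted over all types together (0.0372), and when control list position 2 (0.0152) or SAM68 list position 3 (0.0201) was left out. It ranged from 0.0152 to 0.896 over the alternatives.

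Motifs of RNA-binding proteins were counted in the 250 bases before and after each of the 61 distinct exons of the 9 genes and each of 38685 distinct tested exons in all, on the transcribed strand. TAAA, a SAM68 motif, was found on at least 1 side of 51 of the 61 exons (83.6%), beside 81.0% of all exons. TGCATG, the RBFOX motif, was beside 10 of the 61 (16.4%) and 13.8% of all exons. Of the exons described singly, 5 had TGCATG. It occurred 3 times before the SLK 93-nt exon, 3 times before and 1 time after the MAP3K7 81-nt exon, and 2 times before and 1 time after the EXOC1 45-nt exon. It occurred 1 time before the NUMB 144-nt exon and 1 time after the TJP1 240-nt exon. ACTAAC, the QKI motif, was beside 7 of the 61 (11.5%) and 5.56% of all exons. GGTGGT and TGGTGG, of the type that ESRP proteins bind, were beside 7 (11.5%) and 6 (9.84%) of the 61, and 14.9 and 22.3% of all exons. The ENAH 63-nt exon had TAAA 6 times before and 4 times after it, and none of the other motifs. A match is a stretch of letters and does not show binding.

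The level of each gene was read from its most deeply covered event, in rpm, and tested with limma over 10147 genes. Calls needed an adjusted p under 0.05 and a log2 fold change of at least 1 in either direction. Of the 9 genes 0 were called, beside 5 of all genes (0.0493%), and 1 of the 9 had an unadjusted p under 0.05, beside 12.1% of all genes. The count over all genes rests on single libraries, as it ran from 1 to 12 with 1 library left out. In bulk RNA, fewer cells with a transcript and less of it per cell cannot be told apart. The 1 gene was SLK, with 44.5, 47.4 and 47.0 rpm in control and 26.8, 35.2 and 39.3 rpm in SAM68. All SAM68 libraries were lower than all control libraries, with a log2 fold change of -0.47, but the adjusted p was 0.113 (0.0363 with SAM68 list position 3 left out). CTNND1 had 60.0, 51.1 and 49.3 rpm in control and 57.6, 50.3 and 50.4 rpm in SAM68, and its groups overlap. The log2 fold changes of the 9 genes ran from -0.47 for SLK to 0.16 for EXOC7, with a median of -0.13 beside -0.03 over all genes. EXOC7 was at 0.040 in the sum of all skipped exon events, and at 0.24 with control list position 1 left out.

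Of 13 splicing regulators, 10 were tested and KHDRBS1 was the one called. An unadjusted p under 0.05 was found for 4 of the 10 (40%), which are KHDRBS1, RBFOX2, PTBP1 and SRSF1, beside 12.1% of all genes. KHDRBS1 is the gene on the plasmid, so its place in this count was set by the design and raises the share. RBFOX2 had 42.2, 35.8 and 30.3 rpm in control and 46.1, 43.7 and 47.7 rpm in SAM68. Its groups do not overlap, with a log2 fold change of 0.35 that missed the correction (adjusted p 0.234). The fold change was 0.23 with control list position 3 left out, and 0.11 (adjusted p 0.691) in the sum of all skipped exon events. PTBP1 was at 455, 460.5 and 468 rpm in control and at 519, 475 and 551 rpm in SAM68, a log2 fold change of 0.16 (adjusted p 0.212). SRSF1 was lower in every SAM68 library, by a log2 fold change of -0.18 (adjusted p 0.214), and QKI overlapped between groups at -0.12. MBNL2, with few reads, had 4.65, 3.98 and 2.84 rpm in control and 4.73, 6.06 and 5.14 rpm in SAM68. Its groups do not overlap, with a log2 fold change of 0.44 (adjusted p 0.623), which was 0.27 with control list position 3 left out and 0.21 in the sum of all skipped exon events. ESRP1 had 2, 2 and 1 reads in control and 0, 0 and 1 in SAM68, too few to test, and ESRP2 and RBM47 were also not tested.

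**Figure D4:**
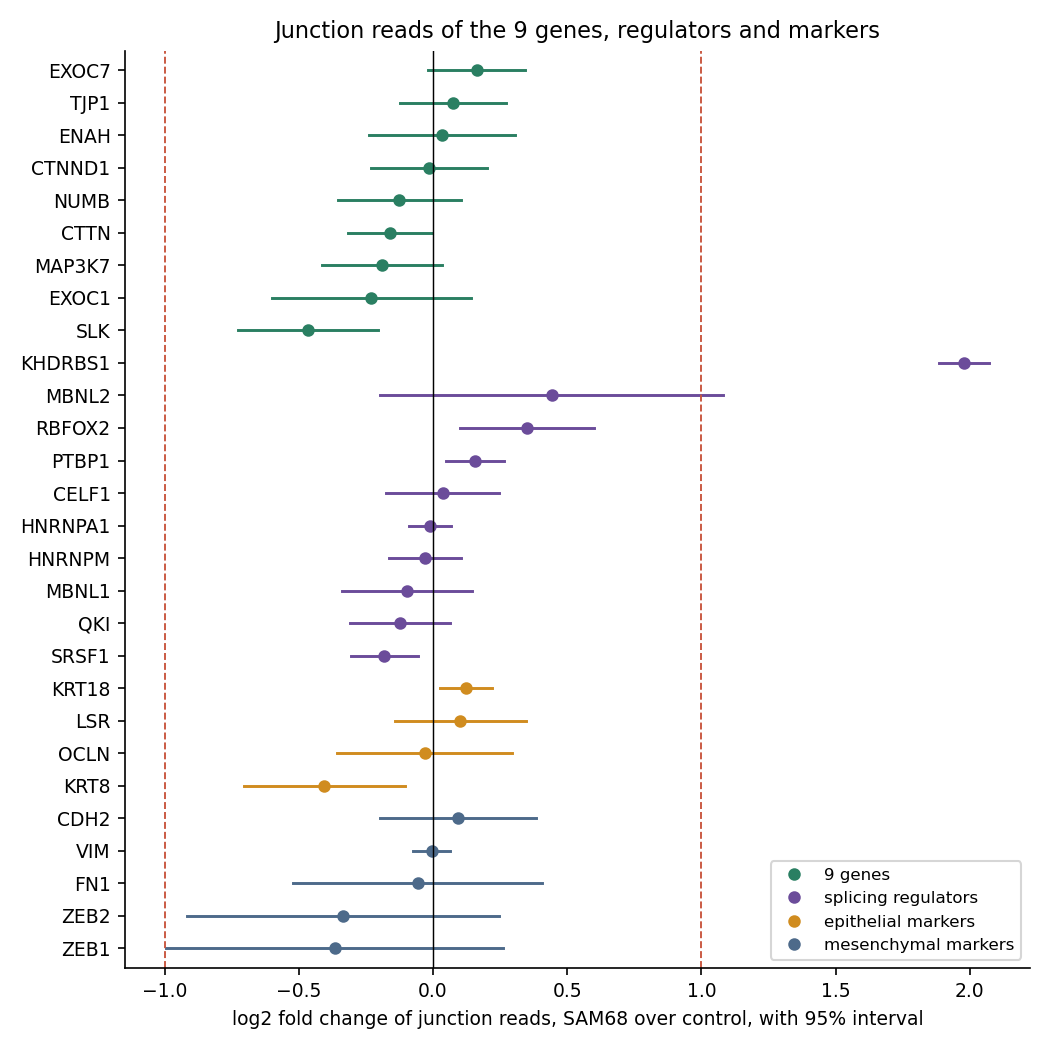
log2 fold change of junction reads (SAM68 over control) with 95% intervals for the 9 genes, the tested splicing regulators and the tested epithelial and mesenchymal markers, with dashed lines at 1 on either side of 0. KHDRBS1 stands at 1.98, and the 9 genes lie between -0.47 and 0.16.

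Markers of the cell states were read only where the tables list an event of the gene, so a missing marker is not listed rather than not expressed. Of 16 epithelial markers 6 had reads and 4 were tested (KRT8, KRT18, LSR and OCLN), and CDH1 and EPCAM were not listed. Of 15 mesenchymal markers 7 had reads and 5 were tested (VIM, CDH2, ZEB1, ZEB2 and FN1). By limma 0 of these 9 were called, and 2 epithelial (50% of the tested ones) and 0 mesenchymal markers had an unadjusted p under 0.05, beside 12.1% of all genes. The epithelial markers summed to 1057, 804 and 797 rpm in control and 836, 820.2 and 842 rpm in SAM68, with KRT18 the most abundant on average. The control library in list position 1 stands out through KRT8, which had 520 rpm there, 253 and 236 rpm in the other control libraries and 248, 235 and 229 rpm in SAM68. The mesenchymal markers summed to 4107, 4245 and 4259 rpm in control and 4368, 4079 and 4118 rpm in SAM68, most of it VIM. Both sums overlap between the groups. KRT18 was higher in every SAM68 library by a log2 fold change of 0.12 (adjusted p 0.305). KRT8 was at -0.40, and at -0.04 once control list position 1 was left out.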

How the data were processed

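RNA of 6 NCI-H1975 libraries was sequenced. The authors filtered and trimmed reads (fastp 0.20.0), aligned them with HISAT2 2.1.0 to GRCh38 and ran rMATS. The deposited tables hold, as other units, raw junction read counts, inclusion levels and effective lengths. The authors' own p-values, FDR and level differences were not used. In the A3SS table a spreadsheet had regrouped lists of 275 events, of which 163 were recovered and 112 left out, none of the 9 genes. Quasi-binomial fits used R 4.3.3 with dispersions moderated within each type by limma 3.58.1, and every type shrank to 1 shared dispersion (2.30 for skipped exons). Gene levels were log2 of rpm plus 0.5, tested with limma. Intervals are at 95% by the delta method from the fit, which weights libraries by reads, and cover no other error. Exact permutation tests were two-sided. Exons were numbered from GENCODE 44 and sequences read from hg38, the build of the tables. All 61 exons of the 9 genes have AG before and GT or GC after them. Exons described singly followed a stated rule, with exceptions said in the text. For junction reads the rule took in the 9 genes, the regulators and the markers, and the ones among them given singly were chosen after their values were seen. Of the marker list, 1 gene is not reported here. Members and lists were chosen with earlier results of these data known. The tests were also run on simulated data, with an outcome that is not reported here.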

Additional observations from a re-analysis of the deposited data

How the results depend on the processing

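No event of the 9 genes was called under any of 13 alternatives (0 in each), among them limma, an own dispersion per event, other read minimums, a limit of 5 points and leaving out each library. None of the 9 genes was called by junction reads under 11 alternatives either (0 in each). Calls among all events numbered 3 with limma, 2 with own dispersions and 106 at a limit of 5 points, and 53 to 75 with 1 library left out, beside 62. Other genes of the programme had 1 call with p adjusted over all types together, and 0 to 1 with 1 library left out. The cause was not tested.

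Of 32 PSI differences, 16 were reversed under no alternative run, among them the ENAH 63-nt exon and the CTTN pair, and 16 were reversed at least once. The row of the NUMB 33-nt exon with few reads went from -10.6 to 0 points without SAM68 list position 3. It had no value at a minimum of 20 reads. With 1 library left out, differences in points ran from -1.73 to 2.42 for the CTNND1 119-nt exon, -7.28 to 3.07 for its 289-nt exon, -7.02 to 2.74 for its 182-nt exon, -1.86 to 0.9498 for the CTTN 111-nt exon, -1.45 to 1.69 for the ENAH 111-nt exon and -3.77 to 4.25 for its 795-nt exon. They ran from -16.7 to 3.00 for the EXOC1 45-nt exon, -1.20 to 1.75 for the EXOC7 69-nt exon, -2.23 to 1.41 for its 93-nt exon, -0.000438 to 1.81 for the MAP3K7 81-nt exon and -1.90 to 0.141 for its 139-nt exon. For NUMB they ran from -0.911 to 3.04 (144-nt exon), -0.781 to 2.43 (294-nt exon), -6.97 to 0.0674 (33-nt exon) and -0.811 to 4.48 (85-nt exon), and for the TJP1 240-nt exon from -3.58 to 0.370. Without effective lengths the ENAH 795-nt exon was at -0.105. Summed over their rows, in which a shared junction counts more than once, the CTTN 111-nt exon was at 0.703, the EXOC7 93-nt exon at 1.71 and the NUMB 33-nt exon at -5.07. Without effective lengths differences fell for exons included nearly always, to -1.37 for the TJP1 478-nt exon, -0.624 for the MAP3K7 139-nt exon, and 1.97 and 1.08 for the NUMB 85-nt and 132-nt rows from the first exon. They grew for skipped exons, to -4.68 for the ENAH 63-nt exon and 0.933 for the SLK 93-nt exon. The CTNND1 72-nt exon counted from exon 3 ran from 1.30 to 5.73 with 1 library left out.

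Calls among all genes numbered 5, and with 1 library left out 1, 1 and 2 (control list positions 1 to 3) and 4, 10 and 12 (SAM68 list positions 1 to 3). They numbered 3 with median-ratio scaling or the sum of all skipped exon events. Of 18 log2 fold changes of junction reads, 13 kept their sign. With 1 library left out, CTNND1 ran from -0.080 to 0.068, ENAH from -0.044 to 0.095, NUMB from -0.26 to 0.035 and VIM from -0.036 to 0.013. Median-ratio scaling gave CTNND1 0.016 and VIM 0.027. The sum of all skipped exon events gave CTNND1 0.0087, ENAH -0.0063, TJP1 -0.082 and VIM 0.016. With 1 library left out, QKI ran from -0.22 to -0.051 and KRT8 from -0.61 to -0.043, and the sum gave QKI -0.012. The cause was not tested. No paired analysis was possible because the lists carry no replicate numbers. Depth limits the exons with few reads of one form, such as ENAH, SLK and EXOC1, and the shared dispersion within a type is too small for events with a larger spread of their own.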
